A study of Mus musculus with 24 samples.

Results

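Cholesterol synthesis was examined through 7 genes, Hmgcs1, Sqle, Idi1, Insig1, Srebf2, Lss and Fdft1, each taken as the single row of the deposited gene count table that carries its symbol, out of 55487 genes. The table covers 24 bulk RNA sequencing libraries of mouse macrophages sorted from digested tissue: lung (alveolar macrophages), liver (Kupffer cells), brain (microglia) and spleen (splenic macrophages). Each type was taken from mice of the genotype Z165KO (KO here) and from wild-type (WT) mice, with 3 libraries in each of the 8 groups and 100000 sorted cells behind each library. The labels do not describe the Z165KO allele, the age or strain of the mice, or the gate used for sorting, nor do they say whether the replicates came from different mice. A p-value here therefore covers only the spread between these libraries, which may be technical. The study's title concerns the support of Zeb2 expression by cMaf. All 7 genes were counted in every library, with between 50 counts (Idi1) and 10318 counts (Srebf2) in a library, and all 7 passed the filter on low counts in every comparison.

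Cells make cholesterol from acetyl-CoA through mevalonate and the isoprenoids, which are joined into squalene and closed into the first sterol ring. The transcription factor SREBP2, the product of Srebf2, drives the genes of this route when sterol in the endoplasmic reticulum is low, and INSIG1 holds the SREBP2 precursor there when sterol is plentiful. Insig1 and Srebf2 are themselves targets of the factor, so their RNA forms part of the feedback. The same factor drives lipoprotein uptake, but none of these 7 genes encodes an uptake receptor. Hmgcs1, Idi1, Fdft1, Sqle and Lss encode enzymes, given here in pathway order. Alveolar macrophages are known for the clearance of lipid-rich surfactant, splenic and Kupffer macrophages for the clearance of aged red cells and blood-borne particles, and microglia for work in the sterol-rich brain.

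In the GENCODE annotation of the mm10 build (GRCm38), Srebf2 lies on chromosome 15 from 82147181 to 82205379 on the plus strand, and Insig1 on chromosome 5 from 28071363 to 28078662 on the plus strand. Hmgcs1 runs from 119690379 to 119708260 and Idi1 from 8885501 to 8892451, both on the plus strand of chromosome 13. Fdft1 occupies 63145150 to 63179578 of chromosome 14 on the minus strand. Sqle lies on the plus strand of chromosome 15 from 59315077 to 59331192, and Lss on the plus strand of chromosome 10 from 76531588 to 76557138. The 3′ end of Fdft1 overlaps that of Ctsb, the cathepsin B gene, which runs from 63122462 to 63145923 on the other strand. Ctsb took far more counts, at 2330 ± 140 CPM (counts scaled to a fixed library total) in KO alveolar macrophages and 2310 ± 107 CPM in WT alveolar macrophages (SD, n = 3 each). In splenic macrophages it stood at 13300 ± 735 CPM in KO and 14900 ± 2300 CPM in WT. Whether the counting used strand is not stated, so Fdft1 reads cannot be told apart from Ctsb reads where the genes overlap.

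Promoter sequence was available from RefSeq (GRCm38.p6) for Hmgcs1, Srebf2, Insig1, Idi1 and Lss, as 300 bases each, 250 before and 50 after the start. Stretches of 80 bases are shown for the enzyme gene with the lowest p-value in the alveolar genotype comparison and for the sensing pair of the pathway. Capitals mark the letters TCACNCCA, a form of the sterol regulatory element that SREBP2 is known to bind, and CCAAT read on the opposite strand (ATTGG), a box of the factor NF-Y that often stands beside it. All are on the plus strand, at chr13:119690146-119690225, chr15:82147039-82147118 and chr5:28071175-28071254.
Hmgcs1: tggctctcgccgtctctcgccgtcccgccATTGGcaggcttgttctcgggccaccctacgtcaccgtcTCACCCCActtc
Srebf2: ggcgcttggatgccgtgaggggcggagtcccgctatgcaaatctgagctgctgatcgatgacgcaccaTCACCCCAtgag
Insig1: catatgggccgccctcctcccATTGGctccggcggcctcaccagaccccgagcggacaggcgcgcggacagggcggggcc

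The SRE-like letters lie at -137 to -130 from the RefSeq start of Hmgcs1 and at -162 to -155 from that of Srebf2. These RefSeq starts differ from the GENCODE gene starts given above. Searched on both strands, TCACNCCA occurred in 2 of the 5 member promoters and in 4.36% of 32851 RefSeq promoters of the same length. CCAAT occurred in all 5, against 37.4% of promoters, and the GC box GGGCGG in all 5, against 35.7%. The E-box CACCTG, the type of site that ZEB2 is known to bind, occurred in 2 of the 5 (Srebf2 and Lss), against 20.2% of promoters. No match of these motifs in the 5 promoters shares letters with another. These matches describe letters in the windows and say nothing of binding in these cells.

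Total counts ranged from 50449347 to 65981787 over the 24 libraries. Each type carried its own markers: 6 of 6 alveolar markers averaged above 1 CPM in alveolar macrophages of both genotypes and summed to 25200 to 31100 CPM in KO and 20400 to 25700 CPM in WT alveolar libraries, against at most 1300 CPM in any library of another type. Zeb2, a zinc finger repressor, had 139, 126 and 142 CPM in KO alveolar libraries, against 297, 282 and 190 CPM in WT alveolar libraries. The 3 KO values all lay below the WT values, but the change was not called over all genes (log2 fold change -0.89 ± 0.19 SE, adjusted p = 0.116). In the other types Zeb2 overlapped between genotypes, for example at 320 ± 1.55 CPM in KO and 310 ± 17.5 CPM in WT splenic macrophages (SD, n = 3 each). Calls rest on edgeR's two-sided quasi-likelihood test with Benjamini-Hochberg adjustment over all genes tested, at 0.05. Differences are log2 fold changes ± SE (standard error).

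The clearest pattern was between macrophage types. The enzymes of the route averaged highest in alveolar macrophages of both genotypes, and the sensing genes followed them only in part. Among KO libraries 7 of 7 genes differed between the 4 types by the F test, where 56.9% of all genes did. Among WT libraries 6 of 7 did, where 52.3% of all genes did, and Lss did not pass (adjusted p = 0.0679). In KO, alveolar macrophages were above Kupffer cells for 6 of 7 members, above microglia for 6 and above splenic macrophages for 6, where 13.4%, 22.9% and 16.5% of all genes were called higher. In WT the counts were 6, 7 and 4 of 7, where 12.4%, 20.4% and 12.8% of all genes were called higher. Insig1, Srebf2 and the enzyme gene Lss were not called against WT splenic macrophages. Over these comparisons 1 member was called lower once, Insig1 against splenic macrophages in KO. The share of all genes called lower was 17.8%, 22.9% and 18.9% in KO and 15.6%, 19.4% and 14.2% in WT. In bulk libraries fewer cells of a type that expresses a gene and less RNA of that gene per cell cannot be told apart.

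**Figure D1:**
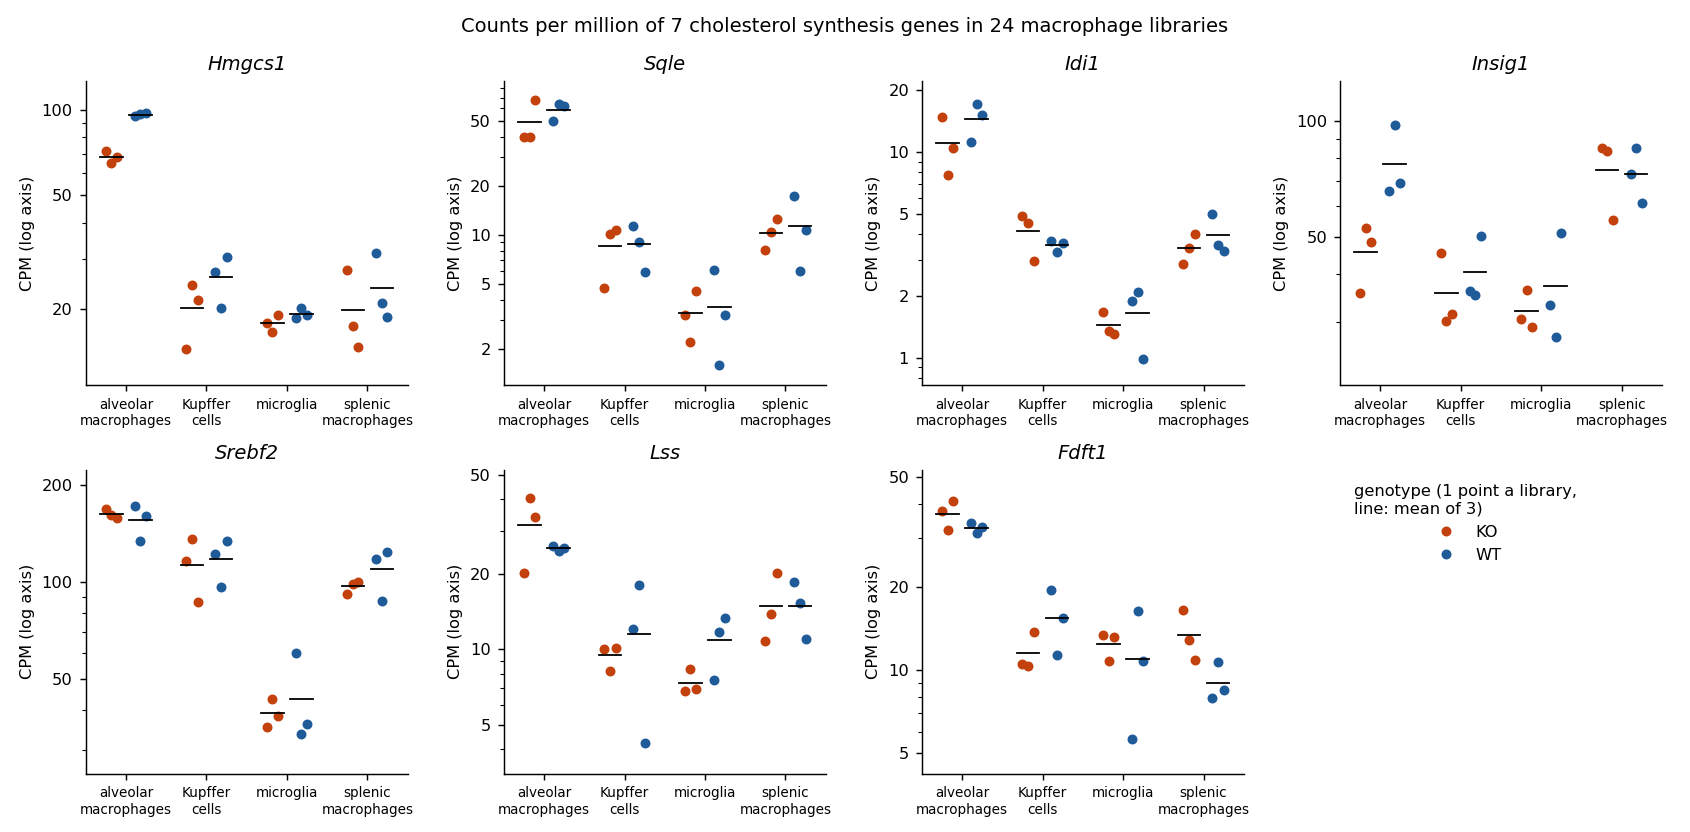
CPM (log axis) of each of the 7 genes in the 24 libraries, by macrophage type, with KO left of WT, 1 point a library and a line at the mean of 3. Hmgcs1, Sqle and Idi1 separate all 6 alveolar libraries from all others, while Insig1 in splenic libraries reaches the level of WT alveolar libraries.

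Between the other types, fewer members differed. Kupffer cells were above microglia for 3 of 7 members in KO (Sqle, Idi1 and Srebf2) and for 1 in WT (Srebf2), where 20.1% and 18.3% of all genes were called higher. Microglia were below splenic macrophages for 5 members in KO (Sqle, Idi1, Insig1, Srebf2 and Lss) and for 4 in WT (the same without Lss), where 19.4% and 18.6% of all genes were called lower. The Lss call in KO was lost without splenic KO replicate 3 (adjusted p = 0.0569), and the Insig1 call in WT without microglia WT replicate 1 (0.0502) or splenic WT replicate 2 (0.0574). Leaving out 1 library also added calls: between WT Kupffer cells and microglia, Idi1 passed without microglia WT replicate 2 (0.0489) and Sqle without microglia WT replicate 1 (0.0238). Lss passed between KO Kupffer cells and splenic macrophages without alveolar KO replicate 1 (0.0345) or splenic KO replicate 1 (0.0429), and across the WT types without Kupffer WT replicate 2 (0.0204) or 3 (0.0201).

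Srebf2, which encodes the transcription factor itself, had 169, 162 and 158 CPM in KO alveolar libraries, against 172, 134 and 161 CPM in WT alveolar libraries. It averaged 163 CPM in KO and 156 CPM in WT alveolar macrophages, and between 96.8 and 118 CPM in the 4 groups of Kupffer cells and splenic macrophages. Microglia stood lowest, with 35.4 to 43.2 CPM in KO and 33.7 to 59.9 CPM in WT libraries. In KO, Srebf2 was higher in alveolar macrophages than in Kupffer cells by 0.66 ± 0.14 (adjusted p = 0.00354), than in splenic macrophages by 0.67 ± 0.14 (adjusted p = 0.00291) and than in microglia by 2.06 ± 0.14 (adjusted p = 8.37e-07). In WT the alveolar libraries again lay above all others, but only the difference from microglia passed the test, at 1.78 ± 0.24 (adjusted p = 0.000156). The WT differences from Kupffer cells (0.53, adjusted p = 0.127) and from splenic macrophages (0.42, adjusted p = 0.227) were not called. Without microglia WT replicate 1, the difference from Kupffer cells passed (adjusted p = 0.0395). Kupffer cells and splenic macrophages did not differ beyond their spread in either genotype, and microglia were below both in both.

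Insig1, whose product retains the factor's precursor in the endoplasmic reticulum, ran in another order. It had 35.7, 52.6 and 48.4 CPM in KO alveolar libraries, against 65.8, 97.6 and 68.8 CPM in WT alveolar libraries. Splenic macrophages held 85, 83.3 and 55.4 CPM in KO and 72.7, 85.2 and 61.2 CPM in WT. All 3 KO alveolar values lay below all KO splenic values, whereas the WT alveolar and splenic values overlapped. In KO, Insig1 was lower in alveolar than in splenic macrophages by a log2 fold change of -0.81 ± 0.23 (adjusted p = 0.0206), where 18.9% of all genes were called lower. That call was lost without alveolar KO replicate 1 (adjusted p = 0.0665), splenic KO replicate 1 (0.0664) or splenic KO replicate 2 (0.07). In WT the alveolar to splenic difference was 0.01 ± 0.27 (95% interval -0.58 to 0.6, adjusted p = 0.999). The test of whether the genotype effect on Insig1 differs between the 4 types did not pass (adjusted p = 0.598), so the KO and WT orders are given side by side only.

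Against the other types, Insig1 was higher in WT alveolar macrophages than in WT Kupffer cells by 1.06 ± 0.27 (adjusted p = 0.0129) and than in WT microglia by 1.01 ± 0.27 (adjusted p = 0.0121). Both calls were lost without alveolar WT replicate 2 (adjusted p = 0.0614 against Kupffer cells and 0.0582 against microglia), the WT alveolar library with the most Insig1. The first was also lost without Kupffer WT replicate 1 (0.0549) or 2 (0.0542). In KO the same 2 differences were 0.46 (adjusted p = 0.164) and 0.49 (adjusted p = 0.107), with overlapping libraries. Insig1 was the only member called between Kupffer cells and splenic macrophages, lower in Kupffer cells by a log2 fold change of -1.27 in KO (adjusted p = 0.00371) and -1.06 in WT (adjusted p = 0.0215), where 8.93% and 7.53% of all genes were called lower. The WT call was lost without Kupffer WT replicate 1 (0.083), Kupffer WT replicate 2 (0.0837) or splenic WT replicate 2 (0.0848). Microglia had 29.2 to 36.5 CPM in KO and 27.5 to 51.2 CPM in WT, which did not differ from Kupffer cells beyond their spread.

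Hmgcs1, the cytosolic HMG-CoA synthase at the entry to the mevalonate route, had 71.5, 65.1 and 68.3 CPM in KO alveolar libraries, against 94.9, 96.3 and 97 CPM in WT alveolar libraries. In the other types it stayed between 14.4 and 27.4 CPM in KO and between 18.5 and 31.4 CPM in WT libraries. No library of another type came near the alveolar values, and the other types overlapped one another. The alveolar mean was 3.4-fold that of Kupffer cells, 3.83-fold that of microglia and 3.45-fold that of splenic macrophages in KO, against 3.73-fold, 5.01-fold and 4.06-fold in WT. All 6 differences were called, with log2 fold changes of 1.7 ± 0.24 (splenic, adjusted p = 0.000301) to 1.93 ± 0.25 (microglia) in KO and of 1.94 ± 0.2 (splenic, adjusted p = 2.74e-05) to 2.27 ± 0.2 (microglia) in WT. Among Kupffer cells, microglia and splenic macrophages, Hmgcs1 did not differ beyond its spread in either genotype.

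Idi1, the isopentenyl diphosphate isomerase, had 14.9, 7.79 and 10.5 CPM in KO alveolar libraries, against 11.2, 17.1 and 15.2 CPM in WT alveolar libraries. Kupffer cells and splenic macrophages held 2.86 to 5.01 CPM in all 12 libraries and microglia 0.986 to 2.1 CPM in all 6. The alveolar libraries thus lay above every other library and the microglial ones below. Alveolar macrophages were higher than microglia by 2.93 ± 0.34 in KO (adjusted p = 4.21e-05) and by 3.08 ± 0.35 in WT (adjusted p = 3.9e-05). They were higher than the next type in order, Kupffer cells in KO by 1.55 ± 0.32 (adjusted p = 0.00389) and splenic macrophages in WT by 1.8 ± 0.33 (adjusted p = 0.00197). Kupffer cells and splenic macrophages did not differ beyond their spread, and microglia were below splenic macrophages by a log2 fold change of -1.32 in KO and -1.28 in WT.

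Fdft1, the squalene synthase that commits isoprenoids to sterols, had 37.7, 32.1 and 40.9 CPM in KO alveolar libraries, against 34, 31.3 and 32.9 CPM in WT alveolar libraries. Other types held 10.4 to 16.5 CPM in KO and 5.63 to 19.5 CPM in WT libraries. All alveolar libraries lay above all others, and no pair of the other 3 types passed the test. All WT Kupffer values lay above all WT splenic values (11.4 to 19.5 CPM against 7.93 to 10.7 CPM, log2 fold change 0.56 ± 0.32, adjusted p = 0.299), and the remaining pairs overlapped. Alveolar macrophages were higher than Kupffer cells by 1.79 ± 0.22 in KO (adjusted p = 0.000128) and by 1.21 ± 0.33 in WT (adjusted p = 0.0177). The WT call was lost without alveolar WT replicate 1 (adjusted p = 0.0586), Kupffer WT replicate 2 (0.0726) or Kupffer WT replicate 3 (0.0546). The overlapping Ctsb ran in a different order, with its lowest levels in alveolar macrophages.

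Sqle, the squalene epoxidase, a rate-limiting enzyme late in the route, showed the widest fold between types. It had 40.2, 40.3 and 68.1 CPM in KO alveolar libraries, against 50, 64.2 and 61.8 CPM in WT alveolar libraries, and 2.19 to 4.52 CPM in KO and 1.59 to 6.06 CPM in WT microglia. The alveolar mean was 15-fold the microglial mean in KO and 16.2-fold in WT, a log2 fold change of 3.89 ± 0.4 in KO (adjusted p = 1.86e-05) and of 3.95 ± 0.53 in WT (adjusted p = 0.000143). Kupffer cells (4.74 to 11.4 CPM in all 6) and splenic macrophages (6.03 to 17.4 CPM in all 6) lay between and overlapped. Alveolar macrophages were above splenic macrophages by 2.17 ± 0.37 in KO (adjusted p = 0.00102) and by 2.29 ± 0.49 in WT (adjusted p = 0.00514). In KO, Kupffer cells were above microglia by 1.24 (adjusted p = 0.0234), a call lost without Kupffer KO replicate 2 (0.0716), Kupffer KO replicate 3 (0.0952), microglia KO replicate 1 (0.0724) or microglia KO replicate 2 (0.0881). Microglia were below splenic macrophages by -1.72 in KO and -1.66 in WT (adjusted p = 0.0219), the WT call being lost without microglia WT replicate 2 (0.0524), microglia WT replicate 3 (0.0713) or splenic WT replicate 1 (0.0882).

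Lss, the lanosterol synthase that closes the first sterol ring, was less clearly separated by type than the other enzymes. It had 20.2, 40.5 and 34.1 CPM in KO alveolar libraries, against 26.1, 24.8 and 25.6 CPM in WT alveolar libraries. The 3 WT values lay within the KO range. In KO it was higher in alveolar macrophages than in Kupffer cells by 1.85 ± 0.29 (adjusted p = 0.000673), than in microglia by 2.08 ± 0.29 (adjusted p = 0.00018) and than in splenic macrophages by 0.99 ± 0.28 (adjusted p = 0.0194). The last call was lost without alveolar KO replicate 2 (0.0884) or 3 (0.0538) or splenic KO replicate 1 (0.0828) or 2 (0.0665). In WT, Lss ranged from 4.23 to 18.2 CPM in Kupffer cells alone, and the alveolar differences of 1.27 ± 0.43 from Kupffer cells (adjusted p = 0.0476) and 1.18 ± 0.43 from microglia (adjusted p = 0.0478) passed narrowly. The call against Kupffer cells held only without Kupffer WT replicate 2 and was lost on leaving out each of the other 11 WT libraries (adjusted p = 0.0512 to 0.11). The call against microglia held only without Kupffer WT replicate 2 or 3 and was lost on leaving out each of the other 10 (0.0547 to 0.143). With the size factors of DESeq2 in place of TMM both were lost (0.0538 and 0.0535).

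**Figure D2:**
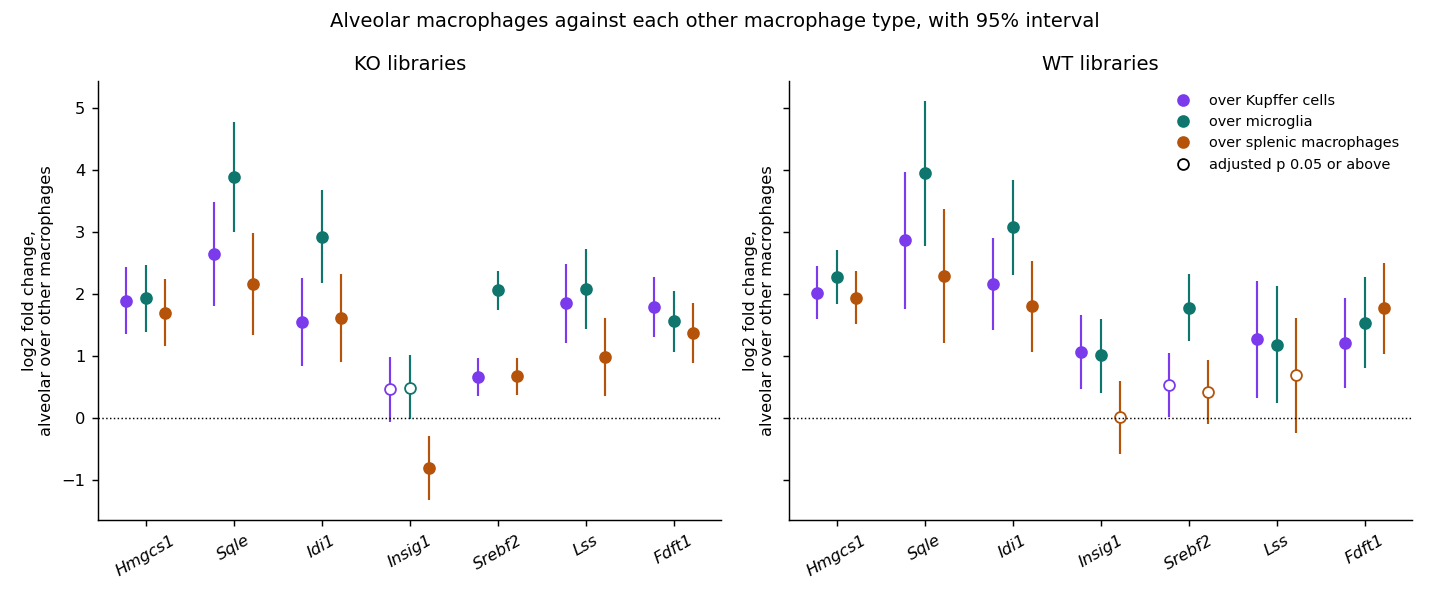
Log2 fold change of alveolar macrophages over Kupffer cells, microglia and splenic macrophages for each gene, with its 95% interval, in KO and in WT libraries. Filled points passed an adjusted p of 0.05, and Insig1 against splenic macrophages is at -0.81 in KO and 0.01 in WT, below the other members.

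Other features of the libraries moved with cell type as well. Summed markers of dissociation stress (immediate early genes induced by tissue digestion) were 6200 to 7140 CPM in KO and 6840 to 20900 CPM in WT alveolar libraries, below the 49600 to 57800 CPM over the 6 microglial libraries. Kupffer libraries had 12700 to 13400 CPM in KO and 13600 to 27100 CPM in WT, the latter overlapping WT alveolar libraries. Lung epithelial markers summed to 403 to 508 CPM in KO and 176 to 395 CPM in WT alveolar libraries and to at most 6.72 CPM in other types. Cell cycle genes summed to 406 to 542 CPM in WT alveolar libraries, above the other WT types. Those had 214 to 340 CPM (splenic), 238 to 261 CPM (Kupffer) and 65.7 to 107 CPM (microglia). In KO, alveolar (358 to 588 CPM) and splenic libraries (420 to 831 CPM) overlapped, above Kupffer (271 to 326 CPM) and microglial ones (70 to 83.4 CPM). The part of these features in the differences between types was not tested.

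Levels of different genes can be compared only per length, in TPM (abundance scaled for transcript length, as deposited). In alveolar macrophages, Srebf2 averaged 68.5 ± 2.07 TPM in KO and 68 ± 10.4 TPM in WT, Hmgcs1 44.9 ± 1.77 in KO and 65.5 ± 1.69 in WT, and Insig1 44.6 ± 8.9 in KO and 78.1 ± 16.1 TPM in WT (SD, n = 3 each). Sqle, Fdft1, Idi1 and Lss followed at 27, 27.1, 9.52 and 8.86 TPM in KO and at 33, 24.9, 12.9 and 7.41 TPM in WT. The 7 genes together summed to 219 to 244 TPM in KO and 281 to 299 TPM in WT alveolar libraries, which did not overlap. In means, Insig1 and Hmgcs1 differed most, and Srebf2, Fdft1 and Lss were not lower in KO. In CPM, 19.4% of all genes had no overlap between the alveolar genotypes, in either direction. The sums were 80.3 ± 3.36 TPM in KO and 85.3 ± 16 TPM in WT microglia, the lowest of the 4 types. Kupffer cells had 120 ± 12.4 TPM in KO and 133 ± 17.1 TPM in WT, and splenic macrophages 156 ± 20 TPM in KO and 162 ± 15.3 TPM in WT.

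**Figure D3:**
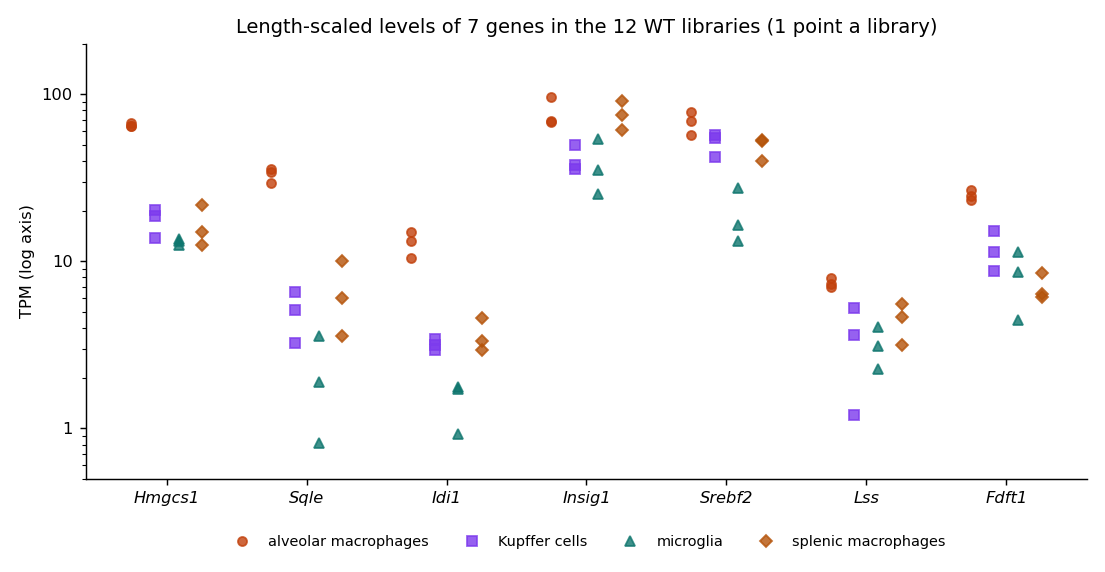
Length-scaled levels (TPM, log axis) of the 7 genes in the 12 WT libraries, 1 point a library, coloured by macrophage type. Alveolar libraries are highest for Hmgcs1, Sqle, Idi1 and Fdft1, and Insig1 and Srebf2 are among the most abundant members in every type.

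The TPM of an enzyme divided by that of Srebf2 in the same library does not depend on the scaling of that library. For Sqle this ratio was 0.308 to 0.56 in KO and 0.378 to 0.62 in WT alveolar libraries, and at most 0.162 in KO and 0.191 in WT libraries of other types, so the alveolar excess of Sqle was larger than that of Srebf2. For Hmgcs1 it was 0.626 to 0.677 in KO alveolar libraries, against 0.865 to 1.12 in WT alveolar libraries, without overlap, and microglia held values of 0.6 to 0.791 in KO and 0.482 to 0.933 in WT. For Insig1 it was 0.491 to 0.752 in KO alveolar libraries, against 0.891 to 1.69 in WT alveolar libraries, again without overlap. The share of all genes without overlap was not computed for ratios to Srebf2. Microglia and splenic macrophages had an Insig1 to Srebf2 ratio of 1.29 to 2.15 in KO and 1.15 to 3.29 in WT libraries. Kupffer cells had a ratio of 0.516 to 0.91 in KO and 0.688 to 0.872 in WT libraries. The Fdft1 to Srebf2 ratio averaged 0.396 in KO and 0.37 in WT alveolar macrophages, against 0.565 in KO and 0.512 in WT microglia. That of Lss averaged 0.13 in KO and 0.11 in WT alveolar macrophages, against 0.126 in KO and 0.188 in WT microglia.

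The comparison of KO with WT within each type asks whether the genotype changes the route. No member was called in any of the 4 types by edgeR. In alveolar macrophages, Hmgcs1 and Insig1 had all 3 KO libraries below all 3 WT libraries, and in splenic macrophages Fdft1 had all 3 KO libraries above all 3 WT libraries. The share of all genes called was 0.317% in alveolar macrophages, 0.0629% in Kupffer cells, 0% in microglia and 0.747% in splenic macrophages. At an unadjusted p under 0.05 the members numbered 2, 0, 0 and 1 of 7, where 12.5%, 6.94%, 4.44% and 11.7% of all genes passed. DESeq2 called 2, 0, 0 and 0 members, where it called 5.31%, 2.16%, 0.52% and 5.07% of all genes.

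**Figure D4:**
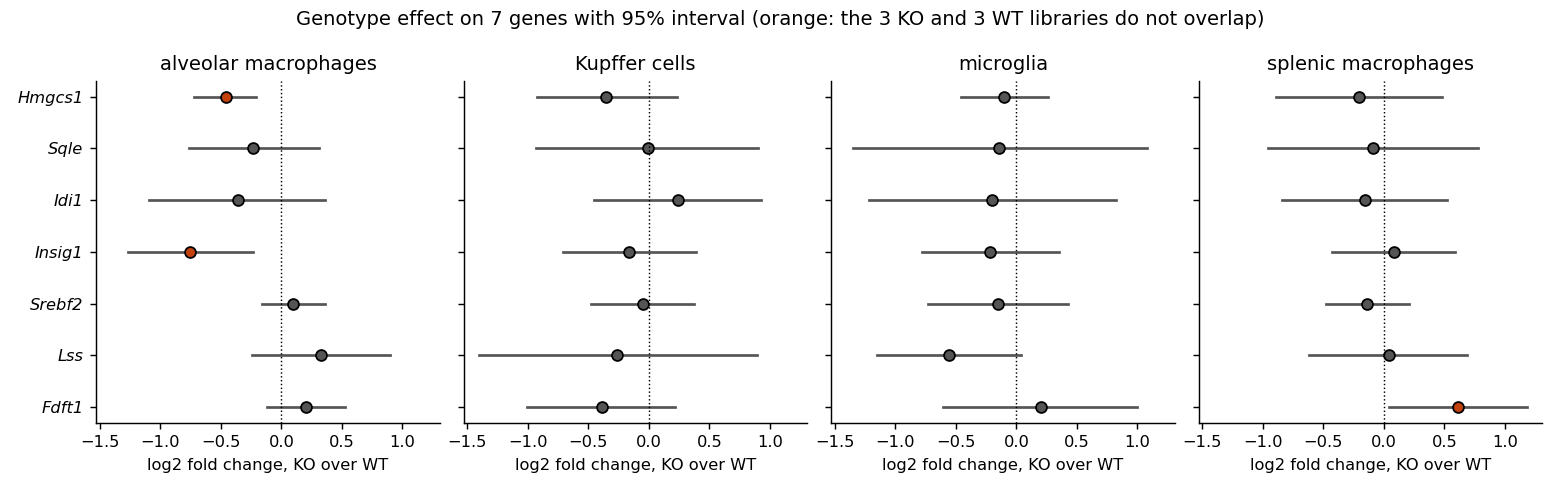
Log2 fold change of KO over WT for each gene in each macrophage type, with its 95% interval from edgeR. Orange marks genes whose 3 KO and 3 WT libraries do not overlap: Hmgcs1 (-0.46) and Insig1 (-0.75) in alveolar macrophages and Fdft1 (0.61) in splenic macrophages.

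In alveolar macrophages Hmgcs1 averaged 68.3 ± 3.23 CPM in KO against 96.1 ± 1.09 CPM in WT, a ratio of 0.711 and a log2 fold change of -0.46 ± 0.11 (95% interval -0.72 to -0.21). Its unadjusted p was 0.0033 and its adjusted p 0.142 by edgeR, against 0.00365 by DESeq2, and over the alternatives the adjusted p ran from 0.00365 to 0.418. Insig1 averaged 45.6 CPM in KO against 77.4 CPM in WT, a ratio of 0.589 and a log2 fold change of -0.75 ± 0.22 (-1.27 to -0.23). Its unadjusted p was 0.0112 and its adjusted p 0.227 by edgeR, against 0.0272 by DESeq2, with a range of 0.0272 to 0.525 over the alternatives. Both genes were lower in KO under every alternative tried, at -0.52 to -0.43 for Hmgcs1 and -0.86 to -0.5 for Insig1 on leaving out 1 library. Of all genes, 11.8% had all KO alveolar libraries below all WT ones, against 2 of the 7 members.

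The other 5 members overlapped between KO and WT alveolar libraries and did not share a direction. Srebf2 (0.1 ± 0.11, adjusted p = 0.805), Lss (0.33 ± 0.24, adjusted p = 0.66) and Fdft1 (0.2 ± 0.14, adjusted p = 0.638) had fold changes above 0. Sqle (-0.23 ± 0.23, adjusted p = 0.778) and Idi1 (-0.36 ± 0.31, adjusted p = 0.72) had fold changes below 0. With Hmgcs1 and Insig1, 4 of 7 members were below 0, where 51.5% of all genes were. The median over the members was -0.23, against -0.01 over all genes tested.

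Several marker sums also separated the alveolar genotypes. B cell markers summed to 6.41 to 8.9 CPM in KO, against 77.5 to 164 CPM in WT alveolar libraries, with 1 of 8 above 1 CPM in KO and 7 of 8 in WT and with Fcer2a and Pax5 at 0 in KO. Monocyte and dendritic cell markers summed to 387 to 662 CPM in KO, against 1090 to 1600 CPM in WT, most of it Fn1, and 6 of 8 in KO and 7 of 8 in WT averaged above 1 CPM. Neutrophil markers summed to 518 to 661 CPM in KO, against 188 to 353 CPM in WT, with 6 of 6 in KO and 5 of 6 in WT above 1 CPM. Lung epithelial markers summed to 403 to 508 CPM in KO, against 176 to 395 CPM in WT, with 5 of 5 above 1 CPM in both. The most abundant of them was Epcam in KO (mean 233 CPM) and Sftpc in WT (mean 146 CPM). Alveolar markers overlapped, at 25200 to 31100 CPM in KO and 20400 to 25700 CPM in WT. Whether these sums come from other cells in the libraries was not tested, nor was their part in the Hmgcs1 and Insig1 values.

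In splenic macrophages Fdft1 had 16.5, 12.9 and 10.9 CPM in KO libraries, against 7.93, 10.7 and 8.46 CPM in WT libraries. All KO values lay above all WT values, the nearest being 10.9 CPM in KO and 10.7 CPM in WT. The log2 fold change was 0.61 ± 0.24 (95% interval 0.04 to 1.18), with an unadjusted p of 0.0382 and an adjusted p of 0.386. Of all genes, 8.02% had all KO splenic libraries above all WT ones, against 1 of the 7 members. Ctsb overlapped between the genotypes, at 12600 to 14100 CPM in KO and 12800 to 17300 CPM in WT. The other 6 members overlapped, with fold changes between -0.21 and 0.08. Splenic B cell markers summed to 62.9 to 114 CPM in KO, against 1100 to 1610 CPM in WT, with 3 of 8 above 1 CPM in KO and 8 of 8 in WT and with Pax5 at 0 in KO. Cell cycle genes summed to 420 to 831 CPM in KO, against 214 to 340 CPM in WT, with 8 of 8 above 1 CPM in both. Neutrophil markers summed to 298 to 352 CPM in KO, against 128 to 161 CPM in WT, with 5 of 6 above 1 CPM in KO and 4 of 6 in WT, and S100a8 and S100a9 were called higher. Dissociation stress genes summed to 30200 to 42600 CPM in KO, against 22800 to 27800 CPM in WT, with 10 of 10 above 1 CPM in both. Neural and glial markers summed to 27.6 to 41 CPM in KO, against 11.3 to 14.3 CPM in WT, mostly Mbp, with 3 of 6 above 1 CPM in KO and 2 of 6 in WT and with Snap25 at 0 in WT. The part of these in the Fdft1 value was not tested.

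In Kupffer cells all 7 members overlapped between KO and WT, where 12.9% of all genes did not overlap. Hmgcs1 had 14.4, 24.3 and 21.5 CPM in KO, against 26.9, 20.1 and 30.4 CPM in WT (-0.35 ± 0.24), and Fdft1 10.5, 10.4 and 13.7 CPM in KO, against 19.5, 11.4 and 15.4 CPM in WT (-0.39 ± 0.26). Their adjusted p was 0.857 and 0.849. Kupffer B cell markers summed to 49.6 to 120 CPM in KO, against 635 to 1040 CPM in WT, with 2 of 8 above 1 CPM in KO and 8 of 8 in WT. Cell cycle genes summed to 271 to 326 CPM in KO, against 238 to 261 CPM in WT. Dissociation stress genes summed to 12700 to 13400 CPM in KO, against 13600 to 27100 CPM in WT. The part of these in the Kupffer values was not tested. In microglia Lss had 6.83, 8.33 and 6.96 CPM in KO, against 7.51, 11.8 and 13.4 CPM in WT, of which KO replicate 2 lies above WT replicate 1 (-0.56 ± 0.26, unadjusted p = 0.0645, adjusted p = 0.987). The other microglial members overlapped as well, where 11% of all genes did not, and no member passed an unadjusted p of 0.05 in Kupffer cells or microglia.

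Over the 4 types together, 6 of 7 members had a mean genotype effect below 0, where 53.6% of all genes did. None was called, where 0.624% of all genes were, 1 member passed an unadjusted p of 0.05, where 9.79% of all genes did, and DESeq2 called 0 members, where it called 2.64% of all genes. That member was Hmgcs1, with a mean log2 fold change of -0.27 ± 0.11 (95% interval -0.5 to -0.04, unadjusted p = 0.0217, adjusted p = 0.383), and its fold change was below 0 in each of the 4 types. Insig1 followed at -0.26 ± 0.13 (adjusted p = 0.556). The genotype effect did not pass the test of a difference between types for any member, where 0.524% of all genes did. The lowest adjusted p was that of Fdft1 (0.537). At an unadjusted p under 0.05 there were 0 members, where 11.6% of all genes passed, and DESeq2 called 0, where it called 3.98% of all genes.

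The other genes of sterol metabolism were described by lists. Of 17 other enzymes of the route, 11, 11 and 13 were called higher in KO alveolar macrophages than in Kupffer cells, microglia and splenic macrophages, and 1, 2 and 1 lower. In WT 12, 10 and 11 were higher and 1, 2 and 1 lower. Of all genes, 13.4%, 22.9% and 16.5% were called higher in KO and 12.4%, 20.4% and 12.8% in WT. Lower calls took 17.8%, 22.9% and 18.9% of all genes in KO and 15.6%, 19.4% and 14.2% in WT. The median log2 fold change of the list was 1.19, 1.37 and 1.27 in KO and 1.39, 1.22 and 0.9 in WT, against 1.79, 2.06 and 1.37 in KO and 1.27, 1.78 and 1.77 in WT for the 7 members. Over all genes the medians lay between -0.07 and 0.01. In each of these comparisons, then, at least 10 of the 17 other enzymes were called higher in alveolar macrophages.

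Mvd, mevalonate diphosphate decarboxylase, averaged 93 ± 25.5 CPM in KO and 96.3 ± 11.5 CPM in WT alveolar macrophages, and was above microglia by 2.57 ± 0.25 in KO and 2.52 ± 0.19 in WT. Cyp51, lanosterol demethylase, averaged 85.9 ± 3.32 CPM in KO and 97.7 ± 4.15 CPM in WT alveolar macrophages, and Msmo1, the sterol methyl oxidase, 72.3 ± 3.56 CPM in KO and 81.4 ± 1.68 CPM in WT (SD, n = 3 each). Lbr, which encodes a sterol reductase that is also the lamin B receptor of the nuclear envelope, ran the other way. It averaged 36.1 ± 5.66 CPM in KO and 33.2 ± 0.88 CPM in WT alveolar macrophages, and was below splenic macrophages by -2.56 ± 0.19 in KO and -2.06 ± 0.18 in WT.

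Of 14 genes of sterol sensing and uptake, 4, 6 and 2 were called higher in KO alveolar macrophages than in Kupffer cells, microglia and splenic macrophages, and 1, 3 and 1 lower. In WT 5, 6 and 2 were higher and 1, 2 and 2 lower. Mylip, a ubiquitin ligase that marks lipoprotein receptors for degradation, was lower in alveolar macrophages in all 6 comparisons, at -1.47, -2 and -1.4 in KO and -1.74, -2.01 and -1.06 in WT. Srebf1, which encodes the related factor of fatty acid synthesis, was higher than in Kupffer cells and microglia in both genotypes. Of 8 genes of sterol efflux and storage, 3, 6 and 4 were higher and 3, 1 and 3 lower in KO, and 4, 5 and 4 higher and 3, 2 and 3 lower in WT. Of 10 fatty acid synthesis genes, 1, 6 and 4 were higher and 3, 2 and 3 lower in KO, and 1, 5 and 2 higher and 4, 2 and 3 lower in WT. These counts stand against 13.4%, 22.9% and 16.5% of all genes called higher in KO and 12.4%, 20.4% and 12.8% in WT, in the same order of types. For lower calls the shares were 17.8%, 22.9% and 18.9% in KO and 15.6%, 19.4% and 14.2% in WT. Several counts are near those shares, for example 2 of 14 sensing and uptake genes higher than in splenic macrophages in either genotype.

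Between KO and WT within a type, 1 gene of these lists was called. Scd1, a stearoyl-CoA desaturase of the fatty acid list, had 6.46, 12.1 and 13.2 CPM in KO splenic libraries, against 92.2, 64.5 and 67.2 CPM in WT splenic libraries, with no overlap (-2.77 ± 0.29, adjusted p = 0.0106). In alveolar macrophages no gene of the 4 lists was called by edgeR, where 0.317% of all genes were. At an unadjusted p under 0.05, where 12.5% of all genes passed, there were 2 of 17 other enzymes and 2 of 13 sensing and uptake genes. Of the efflux and storage genes 2 of 8 passed, and of the fatty acid genes 4 of 10. DESeq2 called 2, 0, 2 and 3 genes of these lists, where it called 5.31% of all genes. In Kupffer cells 0, 1, 0 and 0 genes of the lists passed an unadjusted p of 0.05, where 6.94% of all genes did. In microglia 0, 0, 1 and 1 passed, where 4.44% of all genes did. Neither tool called a gene of the lists in these types, where DESeq2 called 2.16% of all genes in Kupffer cells and 0.52% in microglia. In splenic macrophages 4 of 16 other enzymes, 1 of 13 sensing and uptake genes, 1 of 7 efflux and storage genes and 2 of 9 fatty acid genes passed an unadjusted p of 0.05, where 11.7% of all genes did. Of the lists, DESeq2 called Lbr, Sc5d, Mylip and Scd1 in splenic macrophages, where it called 5.07% of all genes. In alveolar macrophages the list medians were -0.01, 0.03, 0.09 and 0.11, beside -0.23 for the members.

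The 7 genes did not move together from library to library within a group. Deviations of log2 CPM from the 8 group means over the 24 libraries gave 21 pairwise Pearson correlations, of which 9 were positive, with a median of -0.06 and a range of -0.67 (Srebf2 with Fdft1) to 0.33 (Sqle with Srebf2). Against the mean of the other 6, the correlation was 0.07 for Hmgcs1, -0.01 for Sqle and between -0.56 and -0.28 for the others. These libraries share depth, preparation and group centring, so the values are descriptive. The 6 genes outside the lists most like the mean of the members were Gm48838 (0.81), Ighv1-66 (0.79), Igkv4-72 (0.78), 4833438C02Rik (0.77), Cnot6 (0.75) and Ccl3 (0.75), of 24030 genes with a median of -0.02, of which 1.59% were above 0.5. Gm48838, Ighv1-66 and Igkv4-72 averaged 0.37, 0.109 and 0.397 CPM.

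**Figure D5:**
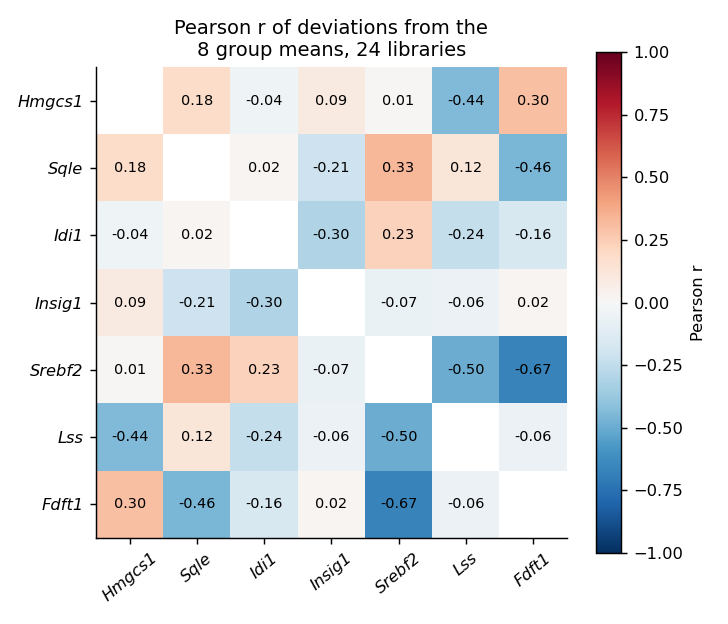
Pearson correlation between each pair of the 7 genes over 24 libraries, computed on deviations of log2 CPM from the 8 group means. Most cells of the grid are near 0 or negative, the lowest being Srebf2 with Fdft1 (-0.67).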

How the data were processed

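Per the labels' protocols, RNA of sorted macrophages (NucleoSpin RNA XS) went into SMARTer Ultra Low libraries, which a NovaSeq X Plus sequenced. The authors deposited a table with gene counts, CPM (counts scaled to the library total) and TPM (length-scaled abundance) per library. The submitters' processing notes name the build mm10 and DRAGEN, STAR, Subread, featureCounts and Salmon. Which tool did what, and how multi-mapped or overlapping reads were handled are points not given in the sources used here. Every test used the authors' counts, which were whole and not normalized. Recomputed CPM matched the deposited CPM to within 4.73e-11. The deposited TPM served for levels, sums and ratios to Srebf2, compared between genes and between groups, and for no test. The table held 55774 rows, and 287 repeats of a gene with identical values were dropped. TPM was not rescaled after this. Replicates differed beyond sampling noise in every pair (lowest chi-square per degree of freedom 32.7), and reads carried no molecular identifiers.

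Libraries were grouped by cell type, genotype and replicate number in their labels. Tests used edgeR 4.0.16 (quasi-likelihood, TMM, filterByExpr with a minimum count of 10) in R 4.3.3, with Benjamini-Hochberg adjustment over all genes. KO was compared with WT in the 6 libraries of each type. The mean genotype effect and its difference between types (F test) came from 1 fit of 24 libraries, and cell types were compared within the 12 libraries of each genotype by an F test and 6 pairwise contrasts. Alternatives were DESeq2 1.42.0, its size factors, no filter, a replicate block, a fit of all 24 libraries and leaving out each library. An exact permutation test of 3 against 3 cannot go below 0.1 and was not used. Within a type, KO and WT libraries of the same number did not deviate together (correlations of -0.04 to 0.04), so the numbers were not treated as pairs. Whether same-numbered libraries of different types deviate together, as they might if taken from the same mouse, was not checked. Named genes were the 7 members, Zeb2, called genes of the other lists or at most 4 a list by p-value, and the 6 genes most like the members. The edgeR script was tested on simulated data. The members and lists were chosen with earlier results of these data known.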

Additional observations from a re-analysis of the deposited data

Results flagged for a closer look

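No member moved in opposite directions in 2 types with libraries that did not overlap. Of the other lists, 5 of 49 genes did (10.2%), where 1173 of 24030 genes (4.88%) did, so nothing particular to the lists is read from the count. In these, all 3 KO libraries lay on one side of all 3 WT libraries in one type and on the other side in another. Sc5d, sterol desaturase of the late route, had a log2 fold change of KO over WT of 0.32 in alveolar and -0.56 in splenic macrophages. Nr1h3, the sterol-sensing nuclear receptor LXR alpha, stood at 0.86 in alveolar and -0.38 in splenic macrophages. Acly, which supplies cytosolic acetyl-CoA, stood at 0.37 in alveolar and -0.27 in splenic macrophages. By edgeR, the test of a difference between the 4 types did not pass for these genes. Its adjusted p was 0.232 for Sc5d, 0.314 for Nr1h3 and 0.5 for Acly. DESeq2 called this difference for Sc5d but not for Nr1h3 or Acly, where it called 3.98% of all genes. Within a type, DESeq2 called Nr1h3 in alveolar macrophages and Sc5d in splenic macrophages, where it called 5.31% and 5.07% of all genes.

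The test passed for a pair of fatty acid desaturases. Scd1 stood at 1.58 in alveolar macrophages, 2.22 in microglia and -2.77 in splenic macrophages (adjusted p of the difference between types 0.00421). Fads2 stood at -4.88 in alveolar and 0.9 in splenic macrophages (adjusted p of the difference 0.0477). Within a type, edgeR called only the splenic change of Scd1. DESeq2 called that change and both genes in alveolar macrophages, but not Scd1 in microglia or Fads2 in splenic macrophages.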

How the results depend on the processing

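Of the values for single genes, 2141 kept direction and call under an alternative, 51 lost the call, 13 gained it and 63 changed sign. Counts of all genes called between KO and WT moved most. In alveolar macrophages they were 55 as reported, 163 without the filter, 922 by DESeq2, 0 with the replicate block, 297 in a fit of all 24 libraries and 0 to 29 on leaving out 1 library, and DESeq2 alone called members there, 2 of 7. In Kupffer cells they were 12, then 76, 413, 0, 48 and 0 to 15. In microglia they were 0, then 13 without the filter, 93 by DESeq2, 19 in the fit of 24 and 0 to 1. In splenic macrophages they were 133, then 330 without the filter, 903 by DESeq2, 10 with the block and 18 to 90. The difference between types called 126, 957 by DESeq2 and 74 to 159 on leaving out 1 library, and the mean effect 150 and 634 by DESeq2. The cause was not tested.

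With the replicate block, KO against WT changed sign for Sqle in microglia (0.02) and splenic macrophages (0.01). So did Insig1 between WT alveolar and splenic macrophages (0) and Srebf2 between KO Kupffer cells and splenic macrophages (0). Srebf2 in that last comparison was -0.03 with DESeq2 size factors, -0.01 without the filter and -0.03 by DESeq2. Hmgcs1 and Insig1 between KO Kupffer cells and microglia were -0.01 and -0.02 with DESeq2 size factors or its test. The block ended the Lss call between WT alveolar macrophages and microglia (adjusted p = 0.0637).

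On leaving out 1 library, these uncalled log2 fold changes spanned 0. In Kupffer cells, KO over WT, Sqle ran from -0.26 to 0.28, Insig1 -0.37 to 0.03, Srebf2 -0.17 to 0.08 and Lss -0.65 to 0.25. In microglia Sqle ran from -0.51 to 0.48, Insig1 -0.41 to 0.08, Srebf2 -0.32 to 0.18 and Fdft1 -0.1 to 0.59. In splenic macrophages Hmgcs1 ran from -0.51 to 0.02, Sqle -0.39 to 0.32, Idi1 -0.26 to 0.02, Insig1 -0.04 to 0.27 and Lss -0.2 to 0.22. In the mean effect Sqle ran from -0.21 to 0.04, Srebf2 -0.1 to 0.02 and Lss -0.2 to 0.02. Between KO types, Kupffer cells over microglia, Hmgcs1 ran from -0.1 to 0.2 and Insig1 -0.21 to 0.15. Kupffer over splenic, Hmgcs1 ran from -0.38 to 0.11, Idi1 -0.11 to 0.21 and Srebf2 -0.12 to 0.11, and microglia over splenic Hmgcs1 -0.42 to 0.07. Between WT types, Insig1 ran from -0.24 to 0.15 (alveolar over splenic) and -0.25 to 0.24 (Kupffer over microglia), and Lss -0.59 to 0.32 (Kupffer over microglia). Hmgcs1 ran from -0.21 to 0.14 and Srebf2 -0.24 to 0.01 (Kupffer over splenic), and Fdft1 -0.16 to 0.52 (microglia over splenic). The lowest count of a member in a library was 50 (Idi1), so counting error adds to the spread of the low members.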
